A study of Mus musculus with 4 samples.

Results

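Integrins and the proteins that tie them to the actin skeleton were measured in the left ventricle of young and aged mice with and without an ischemic insult. The genes were taken by symbol from a list of 38 and kept with at least 20 unique molecular identifiers (UMIs, tags that count each captured RNA molecule once) over all 4 libraries. All 38 passed, of 32285 genes in the matrices, with 84 UMIs for the scarcest (Itgae) and 107827 for the most counted (Sorbs2). They were divided by role into 2 subunits of the muscle laminin receptor, 12 other matrix receptors, 8 leukocyte and platelet integrins, 3 epithelial-type beta subunits and 13 adaptors.

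Each of the 4 conditions is held by 1 droplet library of male, wild-type C57BL/6J mice: young sham and young I/R at 3 to 5 months of age, aged sham and aged I/R at 24 to 26 months. I/R stands for 45 min of ischemia by surgery on the left anterior descending artery and 24 h of reperfusion. The titles of both sham libraries give sham conditions, as the paper gives sham operations, and other labels describe these mice as healthy and unaltered. Neither the labels nor the paper says how many mice went into a library. With 1 library per condition no test between conditions was possible, so every ratio below compares libraries, and differences between animals, preparations and conditions cannot be told apart.

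Integrins are receptors built of an alpha and a beta subunit that bind the matrix, or a counter-receptor on another cell, outside the cell. Inside, talin and kindlin bind the beta tail and switch the receptor to its active form, and vinculin, paxillin, focal adhesion kinase and the complex of integrin-linked kinase, PINCH and parvin assemble there into a focal adhesion. In heart muscle the same proteins form the costamere, which holds the Z-disc of the sarcomere to the surrounding laminin. Leukocytes carry a beta 2 or beta 7 set of their own for arrest on endothelium and migration, and platelets carry the fibrinogen receptor.

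The matrices hold 91124 to 102883 barcodes and 25836175 to 66767829 UMIs per library, with a median of 244 to 675 UMIs per barcode, and library pairs share 2366 to 2843 barcode sequences. Barcodes separated cell types weakly. In barcodes with a UMI of the endothelial gene Flt1, the other endothelial markers came to 1.03 to 1.14 times their level in barcodes without one, depending on the library. The same ratio was 1.0 to 1.05 for cardiomyocyte markers around Ryr2, 1.0 to 1.11 for mural markers around Rgs5, 1.07 to 1.28 for fibroblast markers around Col3a1 and 1.14 to 1.71 for macrophage markers around Mrc1, and it reached 9.43 only for neutrophil markers around S100a8 in young sham, with 1.36 to 2.53 in the other libraries. The members were therefore not assigned to cell types, and UMIs were summed over all barcodes and given as counts per 1000000 UMIs of the library (CPM). In such sums, fewer cells of a type and less RNA per cell cannot be told apart. CPM of this 3′ assay are not scaled to gene length, so levels are compared between libraries and not between genes. A ratio is a log2 ratio of CPM with a 95% exact (Clopper-Pearson) interval, which covers counting error only, and a member is called higher or lower past 1.5-fold.

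**Figure D1:**
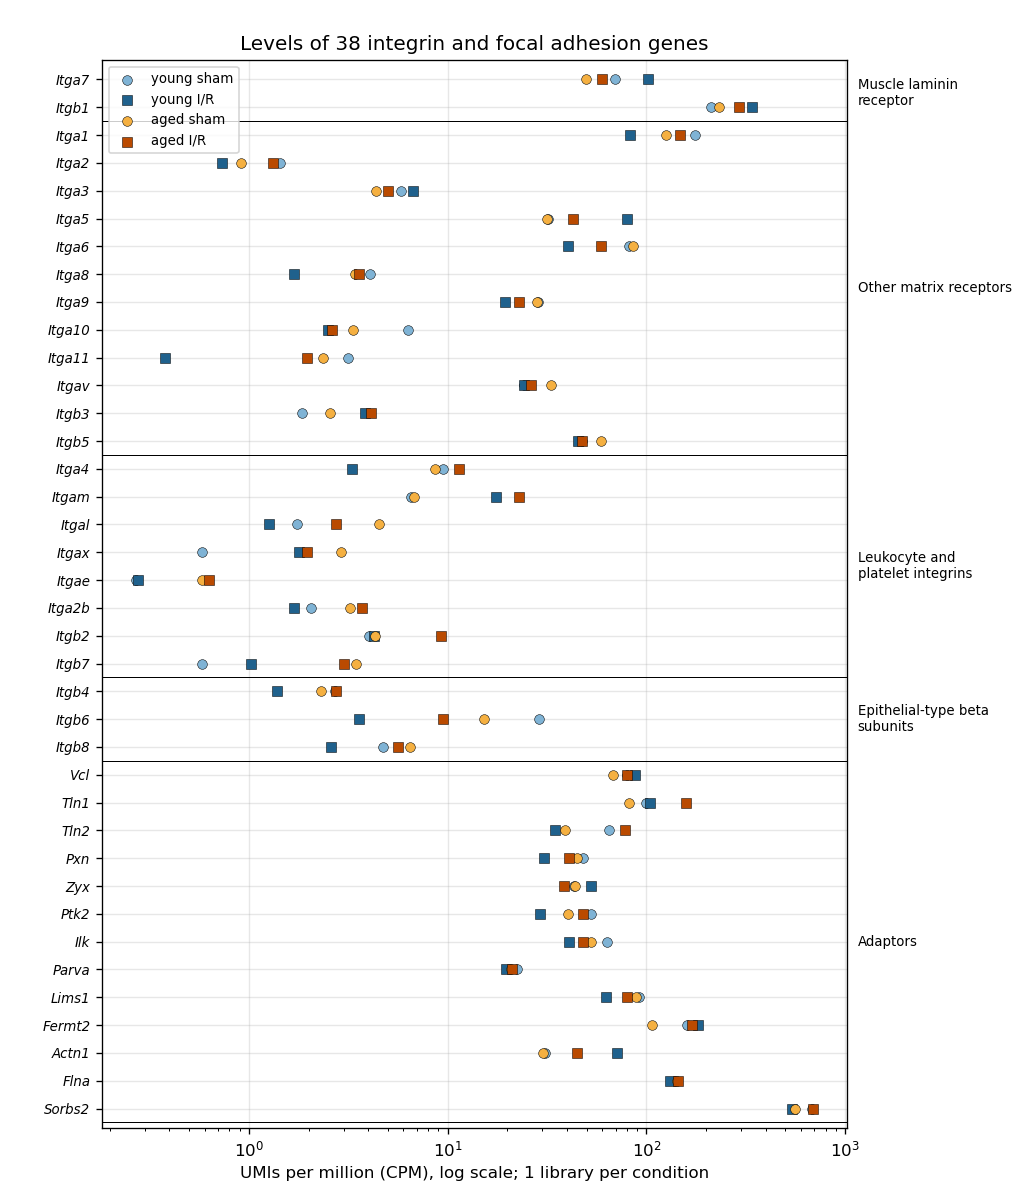
CPM (log axis) of each of the 38 genes in the 4 libraries, grouped by role; each point is 1 library, so there are no error bars. The young I/R library (dark blue squares) holds the lowest value of all 3 epithelial-type beta subunits and the highest value of Itga5, Itgb1, Itga7 and Actn1.

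In young mice, both subunits of the fibronectin receptor (Itga5 and Itgb1) and the adhesion actinin Actn1 were higher after I/R, and all 4 collagen-binding alpha subunits and all 3 epithelial-type beta subunits were lower. Of 38 members 7 were at least 1.5-fold higher (18.4%), beside 8.03% of the 17699 genes with at least 20 UMIs. At least 1.5-fold lower were 14 (36.8%), beside 47.5% of all genes. The median log2 ratio was -0.24 over the members and -0.53 over all genes, and 22 members lay above the latter. The higher ones were Itgb1, Itga5, Itgb3, Itgam, Itgax, Itgb7 and Actn1, and the lower ones Itga1, Itga2, Itga4, Itga6, Itga8, Itga10, Itga11, Itgb4, Itgb6, Itgb8, Tln2, Pxn, Ptk2 and Ilk. When libraries were scaled by the median of gene-wise ratios, which adds 0.37 to each log2 ratio of this comparison, the split was 9 higher and 9 lower (23.7% each), beside 16.2% and 30.8% of all genes. Itgb8 (-0.51), Tln2 (-0.53), Pxn (-0.28), Ptk2 (-0.48) and Ilk (-0.28) were then within 1.5-fold, so that no adaptor was lower. Itga7 (0.92) and Zyx (0.64) were then among the higher members. Set against genes of like span, a centring described with gene span, Itga1 (-0.44), Itga2 (-0.36), Itgb4 (-0.47) and Itgb8 (-0.26) were within 1.5-fold too, so that Itga10 and Itga11 of the collagen receptors and Itgb6 of the epithelial-type subunits were still lower.

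In aged mice most members differed less between the same conditions. The share at least 1.5-fold higher was near that of all genes, and the share lower was below it. The 6 that were at least 1.5-fold higher (15.8%) were Itgam, Itgb2, Itgb3, Tln1, Tln2 and Fermt2, beside 17.6% of all genes. The 2 that were lower (5.26%) were Itgal and Itgb6, beside 10.6% of all genes. In barcodes with at least 200 detected genes, 8 members (21.1%) were higher and 2 lower, beside 16.2% and 10.5% of all genes. The median log2 ratio was 0.16 over the members and 0.09 over all genes. With scaling by the median of gene-wise ratios, which takes 0.10 from each log2 ratio here, the split was 5 higher and 4 lower, beside 14.1% and 14.0% of all genes. Fermt2, at 0.57, was then within 1.5-fold, and Itga6 (-0.63) and Itgax (-0.66) were among the lower members. Set against genes of like span, Fermt2 (0.50) and Itgb3 (0.52) were within 1.5-fold.

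Between the sham libraries, 5 members (13.2%), the leukocyte or platelet integrins Itgal, Itgax, Itgae, Itga2b and Itgb7, were at least 1.5-fold higher with age, a share near the 11.3% of all genes. Itgae rests on 7 and 24 UMIs, with a log2 ratio of 1.10 (-0.16 to 2.56) whose interval includes 0. Itga2, Itga10, Itgb6 and Tln2, which are 4 members (10.5%), were lower, beside 21.4% of all genes, and the interval of Itga2, at -0.64 (-1.33 to 0.05), includes 0 too. The median was -0.07 over the members and -0.14 over all genes. Scaling by the median of gene-wise ratios adds 0.14 and gave 8 higher and 3 lower, beside 15.3% and 15.3% of all genes, and the 3 added were matrix receptor chains, Itgav and Itgb8 at 0.59 and Itgb3 at 0.60.

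Between the I/R libraries, 16 members (42.1%) were at least 1.5-fold higher in aged mice, beside 43.4% of all genes. Lower were 3 members (7.89%), Itga5, Itga7 and Actn1, beside 5.07% of all genes. The median was 0.37 over the members and 0.48 over all genes. Scaling by the median of gene-wise ratios takes 0.33 from each log2 ratio and gave 12 higher and 5 lower, beside 26.2% and 12.1% of all genes. Itga3 (-0.75) and Zyx (-0.76) were then among the lower members. The 4 comparisons share libraries, so that a high or low value in 1 library enters 2 of them.

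**Figure D2:**
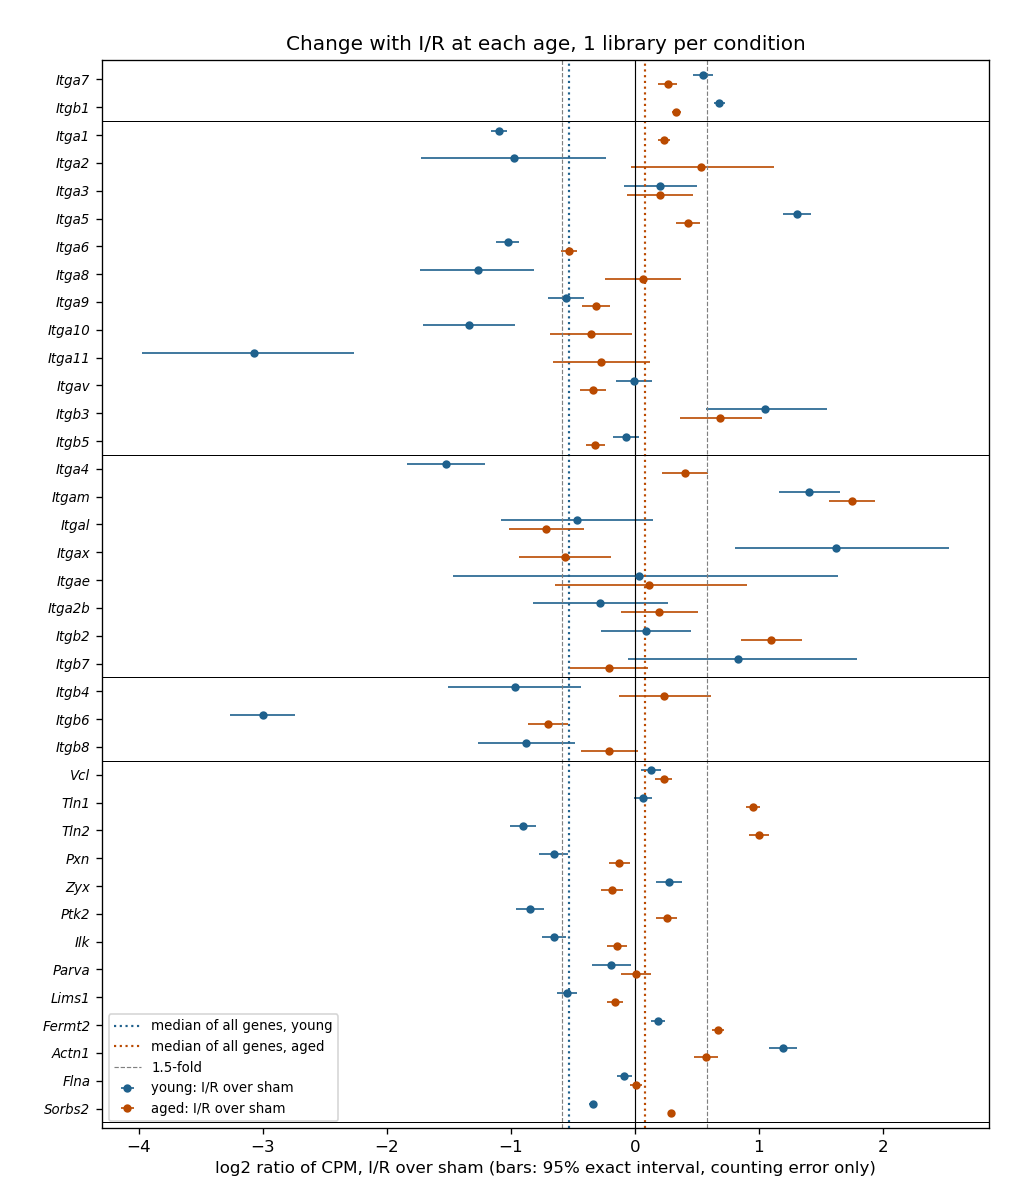
Log2 ratio of CPM, I/R over sham, for each of the 38 genes in young (blue) and aged (orange) mice, with the 95% exact interval for counting error as bars, 1 library per condition; dotted lines mark the median of all genes and dashed lines 1.5-fold. Tln2 lies past 1.5-fold in opposite directions at the 2 ages, and Itgb6 and Itga11 lie near -3.00 in young mice only.

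The muscle laminin receptor is the pair of Itga7, the alpha subunit that cardiomyocytes use to hold laminin, and Itgb1, its beta partner and the beta chain of most matrix receptors. Itgb1 had 212 and 339 CPM in the young sham and I/R libraries and 231 and 291 CPM in the aged ones. Both I/R libraries were above both sham libraries, with a log2 ratio of I/R over sham of 0.68 (0.64 to 0.73) in young and 0.34 (0.30 to 0.37) in aged mice. Itga7 had 69.6, 102, 49.6 and 59.7 CPM in the same order of libraries (young sham and I/R, then aged sham and I/R), which is kept from here on. It was higher in the I/R library at each age, by 0.55 (0.47 to 0.63) and 0.27 (0.19 to 0.34), and the aged I/R library stayed below the young sham library. The aged library was below the young by 0.49 (0.40 to 0.58) on the log2 scale under sham and by 0.77 (0.71 to 0.84) under I/R, the second lowest ratio of the latter comparison.

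The RGD-type receptors bind fibronectin and vitronectin. Itga5, which pairs with Itgb1 as the main fibronectin receptor, had 32.2, 79.6, 31.7 and 42.7 CPM. The young I/R library stood above the other 3, with a log2 ratio over young sham of 1.31 (1.20 to 1.42), against 0.43 (0.34 to 0.53) in aged mice, and the sham libraries differed by -0.02 (-0.15 to 0.11). Itgb3, the beta chain of the vitronectin and platelet fibrinogen receptors, had 1.86, 3.86, 2.56 and 4.13 CPM from 48 to 276 UMIs. It was past 1.5-fold higher with I/R at each age, by 1.05 (0.58 to 1.55) and 0.69 (0.36 to 1.03). Itgav had 24.2, 24.1, 33.2 and 26.3 CPM and Itgb5 47.6, 45.4, 59.4 and 47.7 CPM, each highest in aged sham and within 1.5-fold in all comparisons. With scaling by the median of gene-wise ratios, Itgav passed 1.5-fold between the sham libraries, at 0.59. Itga8, a receptor for nephronectin found on mural cells and fibroblasts, had 4.06, 1.69, 3.43 and 3.59 CPM. Its young I/R library, with 67 UMIs, was 1.27 (0.81 to 1.73) below young sham on the log2 scale, while the aged pair differed by 0.07 (-0.24 to 0.38).

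The collagen receptors Itga1, Itga2, Itga10 and Itga11, which all pair with Itgb1, were all at least 1.5-fold lower with I/R in young mice. Itga1 had 176, 82.3, 125 and 147 CPM, so that the young I/R library was lowest, with a log2 ratio of -1.10 (-1.16 to -1.03). In aged mice the ratio was 0.24 (0.19 to 0.29). Itga11, the fibrillar collagen receptor of fibroblasts, had 3.17, 0.38, 2.37 and 1.96 CPM, from 82, 15, 98 and 131 UMIs. Its log2 ratio was -3.07 (-3.97 to -2.26) in young mice and -0.27 (-0.66 to 0.12) in aged mice, and aged I/R was 2.38 (1.60 to 3.25) above young I/R, the highest ratio of that comparison. Itga10, known from cartilage, had 6.35, 2.52, 3.36 and 2.64 CPM, with young sham above the other 3 libraries. It was lower in young I/R by 1.33 (0.96 to 1.71) on the log2 scale and lower in aged than in young sham by 0.92 (0.58 to 1.25). Itga2 had 0.73 to 1.43 CPM from 29 to 89 UMIs, with an interval of the young ratio from -1.72 to -0.23.

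Of the remaining matrix receptors, Itga6 is a laminin receptor of endothelium and epithelium, Itga3 of epithelium, and Itga9 a receptor for tenascin and osteopontin. Itga6 had 82.0, 40.3, 85.8 and 59.4 CPM. The sham libraries lay close together and both I/R libraries lower, by 1.02 (0.93 to 1.12) in young and 0.53 (0.46 to 0.60) in aged mice on the log2 scale. Itga9 had 28.6, 19.4, 28.3 and 22.8 CPM and Itga3 5.84, 6.73, 4.35 and 5.00 CPM, all within 1.5-fold. With scaling by the median of gene-wise ratios, Itga3 passed 1.5-fold between the I/R libraries, at -0.75.

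The epithelial-type beta subunits are Itgb4, the laminin receptor chain of hemidesmosomes, and Itgb6 and Itgb8, which with Itgav activate latent TGF beta. Itgb6 had 28.8, 3.60, 15.3 and 9.45 CPM, from 743, 143, 633 and 631 UMIs. Young sham was highest and young I/R lowest, with a log2 ratio of -3.00 (-3.26 to -2.74), the lowest among the 32 members with at least 100 UMIs over both libraries. Aged I/R was lower than aged sham by 0.70 (0.53 to 0.86), aged sham lower than young sham by 0.91 (0.75 to 1.07), and aged I/R above young I/R by 1.39 (1.13 to 1.66). The difference of the I/R ratio between the ages was 2.30 (2.0 to 2.60). Itgb4 had 2.71, 1.39, 2.32 and 2.74 CPM and Itgb8 4.76, 2.60, 6.50 and 5.65 CPM. Each was lowest in young I/R, below young sham by 0.97 (0.44 to 1.5) and 0.87 (0.49 to 1.27). The defining epithelial genes were near 0: Epcam had 0, 2, 4 and 1 UMIs and Cdh1 2, 8, 1 and 19 UMIs, and the summed mesothelial and epithelial list came to 13, 8.75, 11.4 and 14.9 CPM, of which Wt1 made up 8.75, 4.81, 7.54 and 6.78.

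Promoter stretches are shown for the matrix receptor and the adaptor with the highest young ratio, Itga5 and Actn1, and for the 2 members with the lowest, Itga11 and Itgb6. These 4 were picked with their ratios and boxes known, so that no contrast between them is read. Of the 38 members, 27 have an entry in the RefSeq promoter table (GRCm38.p6). The stretches below are the 150 bases before the annotated start, 5′ to 3′ on the strand of the gene. Capitals mark the SP1 box GGGCGG on either strand and, in Itgb6, the CArG box bound by serum response factor. Itga5 (chr15:103366792-103366941, minus strand) and Actn1 (chr12:80260364-80260513, minus strand) were higher, and Itgb6 (chr2:60673694-60673843, minus strand, the start inside the gene of 2 annotated) and Itga11 (chr9:62677705-62677854, plus strand) were lower.
Itga5: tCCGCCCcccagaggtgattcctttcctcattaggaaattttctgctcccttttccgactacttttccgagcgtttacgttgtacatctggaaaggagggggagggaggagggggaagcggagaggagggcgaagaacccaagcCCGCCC
Actn1: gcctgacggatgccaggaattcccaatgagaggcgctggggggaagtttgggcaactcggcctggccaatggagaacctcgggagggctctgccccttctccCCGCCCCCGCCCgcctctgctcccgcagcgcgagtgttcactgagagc
Itgb6: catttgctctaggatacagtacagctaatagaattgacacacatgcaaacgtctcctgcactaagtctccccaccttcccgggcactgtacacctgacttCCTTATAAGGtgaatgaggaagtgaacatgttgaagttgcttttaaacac
Itga11: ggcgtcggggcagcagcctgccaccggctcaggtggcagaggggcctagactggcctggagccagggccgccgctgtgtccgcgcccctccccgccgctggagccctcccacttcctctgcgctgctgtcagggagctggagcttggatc
In these stretches Itga5 and Actn1 hold 2 SP1 boxes each and Itgb6 and Itga11 none, while the share of G and C was 56.7%, 67.3%, 44% and 73.3% in the order printed. Searched over the whole windows of 300 bases, which run from 250 before to 50 after the start, the SP1 box was found in 35.7% of 32851 windows. Counted per gene over all its windows, it was in 15 of the 27 members (55.6%) and in 62.2% of the 12932 genes with an entry and at least 20 UMIs. In the young comparison, 4 of 6 members past 1.5-fold higher (Actn1, Itga5, Itgam and Itgb1), 3 of 9 lower ones (Ilk, Itga2 and Itga4) and 8 of 12 between hold it. The higher members thus hold it as often as those between, and over all genes the shares were 50.1% of 1021 higher, 58.3% of 5803 lower and 68.1% of 6104 between. Per gene the CArG box was found in 1.62% of all genes and in 3 members, Fermt2, Itgb6 and Vcl, whose log2 ratios in young mice were 0.18, -3.00 and 0.13. In Itgb6 it stands only at the start inside the gene, and the window of its other annotated start holds none. The AP-1, M-CAT and PU.1 motifs were searched too and are not marked. They were found in 3, 4 and 5 of the 27 members, beside 5.20%, 14.7% and 3.20% of windows. The members are counted per gene over all windows, so these shares are not alike. The PU.1 box GAGGAAGT stands, on either strand, in the printed stretches of Itgb6 and Itga11.

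The leukocyte integrins did not move together. Itgam, the alpha chain of the complement receptor of neutrophils and macrophages, had 6.58, 17.4, 6.79 and 22.8 CPM. The sham libraries were alike and both I/R libraries higher, with log2 ratios of 1.41 (1.16 to 1.66) in young and 1.75 (1.56 to 1.94) in aged mice, the highest of each comparison among members with at least 100 UMIs. Its beta partner Itgb2, which also serves Itgal and Itgax, had 4.03, 4.29, 4.33 and 9.29 CPM. It stood apart only in aged I/R, with a log2 ratio of 1.10 (0.86 to 1.35) over aged sham, against 0.09 (-0.27 to 0.46) in young mice. The neutrophil marker list came to 17.6, 114, 28.0 and 109 CPM, with 9 of its 10 genes higher with I/R in young and 10 in aged mice. The macrophage list of 15 genes came to 423, 311, 509 and 577 CPM. Itgam is thus high in the libraries where neutrophil markers are high, and Itgb2 in the library where the macrophage list is highest. The sizes differ, since the macrophage list had log2 ratios with I/R of -0.45 in young and 0.18 in aged mice. The part of either cell type in these values was not tested.

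Itga4, which pairs with Itgb1 or Itgb7 to bind VCAM1 and is carried by lymphocytes and monocytes, had 9.48, 3.30, 8.61 and 11.4 CPM. It was lowest in young I/R, with a log2 ratio of -1.52 (-1.84 to -1.21), against 0.40 (0.22 to 0.59) in aged mice, and aged I/R was 1.79 (1.52 to 2.06) above young I/R. The lymphocyte list, of 13 genes, was as a sum likewise lowest in young I/R, with 28.1, 4.56, 30.8 and 21.1 CPM. Of this, 9.39 to 14.8 CPM in the other libraries, against 1.34 in young I/R, came from the immunoglobulin gene Ighm. In young mice 4 of the 13 genes, Cd3e, Cd3d, Trbc2 and Skap1, were higher with I/R, from 1 to 14 UMIs per library. The macrophage list was lowest in young I/R too as a sum, but 4 of its 15 genes, Cd68, Fcgr3, Ctss and Tyrobp, were higher with I/R in young mice.

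The other leukocyte chains had fewer counts, and Itgb7, Itgal and Itgax were higher in aged than in young sham. Itgb7, the homing chain of lymphocytes to the gut, had 0.58, 1.03, 3.48 and 3.01 CPM from 15, 41, 144 and 201 UMIs. Both aged libraries were above both young ones, with log2 ratios of 2.58 (1.81 to 3.46) under sham and 1.54 (1.05 to 2.06) under I/R. Its young I/R ratio was 0.83 (-0.05 to 1.79), past 1.5-fold with an interval that includes 0. Itgal, the alpha chain of the ICAM receptor of lymphocytes, had 1.74, 1.26, 4.50 and 2.74 CPM, again with both aged libraries above both young ones, by 1.37 (0.89 to 1.87) and 1.12 (0.66 to 1.60). Among aged libraries it was lower with I/R by 0.71 (0.41 to 1.02). Itgax, the alpha chain of dendritic cells and some macrophages, had 0.58, 1.79, 2.90 and 1.96 CPM from 15, 71, 120 and 131 UMIs. Young sham was lowest and aged sham highest, a log2 ratio of 2.32 (1.54 to 3.20), and the I/R libraries differed by 0.13 (-0.29 to 0.57). With I/R it was higher in young mice, by 1.62 (0.81 to 2.53), and in aged mice the ratio was -0.56 (-0.93 to -0.19). The T cell genes Cd3e, Cd3d and Cd3g had 0.039 to 0.15 CPM each in the young libraries, from 1 to 6 UMIs, and 0.65 to 1.14 CPM in the aged. Of other T cell genes in the list, Trac had 0.46, 0.43, 0.60 and 0.66 CPM and Trbc2 0.19, 0.35, 1.14 and 0.64 CPM. The lymphocyte list as a whole came to 28.1 and 30.8 CPM in the sham libraries. Itgae, of T cells within epithelium, had 0.27 to 0.63 CPM from 7 to 42 UMIs. Itga2b, the platelet alpha chain, had 2.05, 1.69, 3.24 and 3.71 CPM, and the platelet list of 8 genes 15.9, 19.2, 21.4 and 28.8 CPM. The single gene Pf4 made up 13.7, 16.2, 18.9 and 23.8 CPM of this list. Of its 8 genes, 5 were higher with age under sham and 8 under I/R. Itga2b was higher in aged than in young libraries by 0.66 (0.19 to 1.15) under sham and 1.14 (0.74 to 1.55) under I/R.

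**Figure D3:**
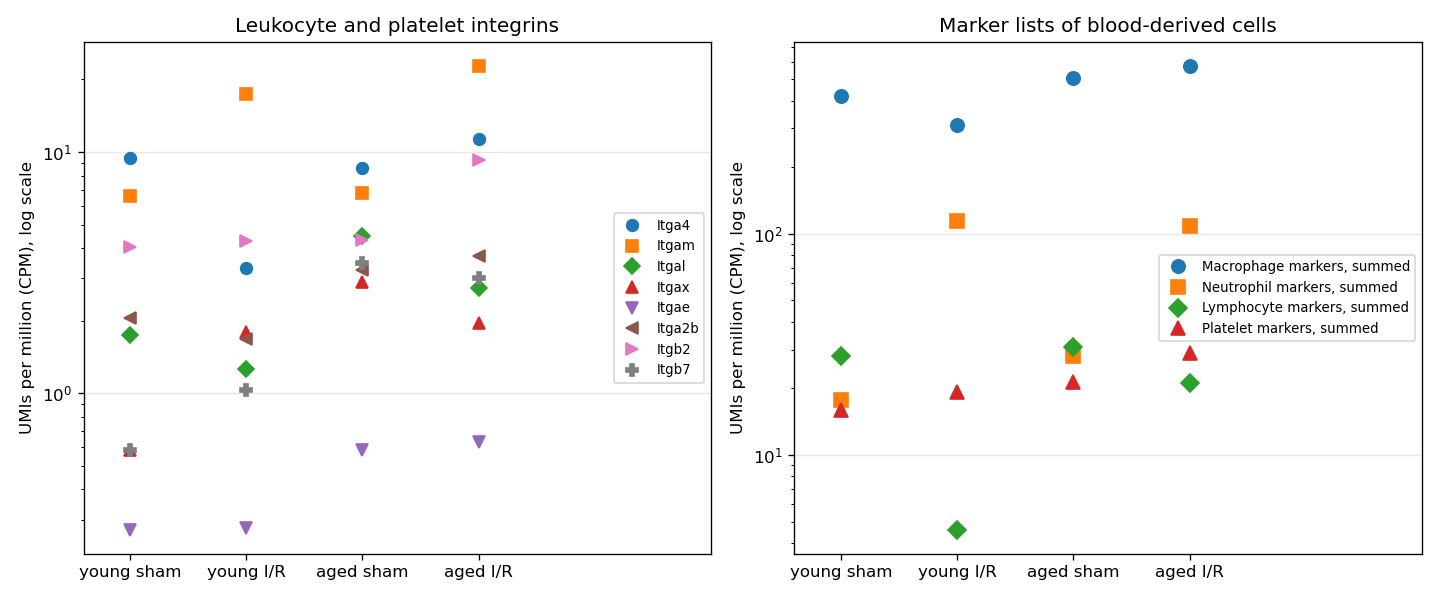
CPM (log axis) of the 8 leukocyte and platelet integrins (left) and summed CPM of the marker lists of blood-derived cells (right) in the 4 libraries, 1 point per library. Itgam and the neutrophil markers are higher in both I/R libraries, and Itgb7 and Itgal are higher in both aged libraries.

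The adaptors that bind the beta tail are the talins and kindlin-2. Tln1, the talin of most cells, had 99.05, 104, 81.3 and 158 CPM. Aged I/R stood above the other 3 libraries, with a log2 ratio over aged sham of 0.96 (0.90 to 1.01). The young pair differed by 0.07 (-0.004 to 0.14), an interval that includes 0. Tln2, the talin of the mature costamere, had 64.6, 34.6, 38.9 and 78.0 CPM. Its ratio was -0.90 (-1.0 to -0.79) in young mice and 1.0 (0.92 to 1.08) in aged mice, which is a difference between the ages of 1.90 (1.77 to 2.03). Aged sham was 0.73 (0.63 to 0.83) below young sham. Fermt2, or kindlin-2, had 159.5, 181, 106 and 169.6 CPM. Aged sham was the low library, 0.58 (0.52 to 0.64) below young sham, and aged I/R was 0.67 (0.62 to 0.72) above it. Tln1, Tln2 and Fermt2 were thus each above their sham library in aged I/R, and Tln2 was the one of the 3 below it in young I/R.

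Of the actin-binding adaptors, Actn1, the non-muscle alpha-actinin of adhesions, had 31.0, 71.0, 30.2 and 45.0 CPM. The sham libraries were alike, and I/R was higher by 1.20 (1.08 to 1.31) in young and 0.57 (0.48 to 0.67) in aged mice, so that aged I/R was 0.66 (0.58 to 0.73) below young I/R. The libraries of Actn1 and Itga5 follow the same order, which rests on 4 values each. Zyx, the tension-sensing LIM protein zyxin, had 43.3, 52.5, 43.9 and 38.7 CPM. It had a log2 ratio with I/R of 0.28 (0.17 to 0.38) in young and -0.18 (-0.27 to -0.09) in aged mice, and aged I/R lay 0.44 (0.35 to 0.52) below young I/R, all within 1.5-fold. With scaling by the median of gene-wise ratios, Zyx passed 1.5-fold in young mice (0.64) and between the I/R libraries (-0.76). Vcl, or vinculin, had 79.9, 87.6, 67.8 and 79.6 CPM and Flna, or filamin A, 139, 131, 142 and 144 CPM, and neither passed 1.5-fold in any comparison. Sorbs2, an adaptor of Z-discs and costameres, had 680, 538, 559 and 686 CPM, with I/R ratios of -0.34 (-0.37 to -0.31) and 0.29 (0.27 to 0.32). Scaling by the median of gene-wise ratios turns its young ratio to 0.03.

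By CPM the signalling and scaffold adaptors were each lowest in young I/R. Scaling by the median of gene-wise ratios changes this for Parva and Ilk. Parva then had a ratio with I/R of 0.18 in young mice. Aged I/R then lay below young I/R for both, at -0.23 for Parva and -0.08 for Ilk. Ptk2, focal adhesion kinase, had 52.6, 29.3, 40.1 and 48.0 CPM, with I/R ratios of -0.84 (-0.96 to -0.73) in young and 0.26 (0.17 to 0.34) in aged mice. Pxn, its docking partner paxillin, had 48.0, 30.5, 44.7 and 41 CPM. Ilk, the integrin-linked pseudokinase, had 63.7, 40.6, 53.0 and 48.0 CPM. Lims1, or PINCH, had 91.6, 62.7, 89.0 and 79.7 CPM and Parva, alpha-parvin, 22.4, 19.6, 20.9 and 21.0 CPM. In young mice the ratios of Pxn, Ilk, Lims1 and Parva were -0.65, -0.65, -0.55 and -0.19, and the median of all genes was -0.53, so that these were near it or above it.

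Gene span, the length of the gene on the chromosome, moved with the ratios. Over all genes with at least 20 UMIs the median log2 ratio with I/R in young mice fell from -0.41 for genes of 5 to 20 kb to -0.90 for the 857 genes over 200 kb, while the shortest class, under 5 kb, lay outside this order at -0.50. In aged mice the classes of 5 to 20 kb and over 200 kb had medians of 0.00 and 0.25, between the sham libraries -0.06 and -0.30, and between the I/R libraries 0.34 and 0.84, with 0.02, -0.07 and 0.42 for genes under 5 kb. Tln2 (chromosome 9, 67217087 to 67559703 in GRCm38) spans 343 kb and its young ratio differed from the median of its span class by 0.00, and Ptk2 (218 kb) by 0.05. In aged mice Tln2 was 0.75 above the median of its class and Ptk2 0.00. Tln1 (chromosome 4, 43531519 to 43562691) spans 31.2 kb and was 0.57 and 0.86 above its class in young and aged mice. Set against genes of like span, Itga5 (22.5 kb) was 1.81 above, Actn1 (92.8 kb) 1.81 above, Itgb6 (124 kb) 2.34 below and Itga11 (106 kb) 2.41 below in young mice. Ratios taken relative to the span class put 16 members at least 1.5-fold higher and 5 lower in young mice, beside 21.1% and 25.1% of all genes, and 4 and 4 in aged mice, beside 14.4% and 12.7% of all genes. Whether span, RNA quality or the share of nuclear RNA lies behind this was not tested. The molecule is given as nuclear RNA in the labels and as single cells in the paper, and Malat1, a nuclear RNA, took 7.34%, 2.22%, 2.88% and 4.33% of the UMIs.

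**Figure D4:**
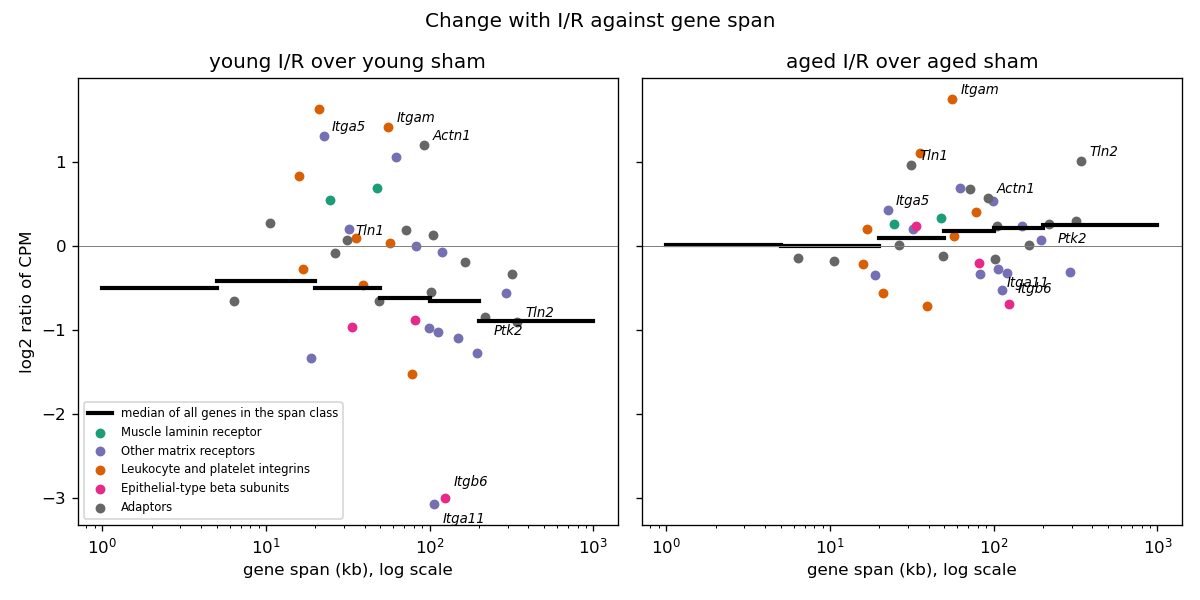
Log2 ratio of CPM, I/R over sham, against gene span in kb (log axis) for the 38 genes in young (left) and aged (right) mice, coloured by role; black bars give the median of all genes with at least 20 UMIs in 6 span classes. Tln2 and Ptk2 lie on the bar of the longest genes in young mice, whereas Itga5, Actn1, Itgb6 and Itga11 lie far from the bars.

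Other genes of the adhesion machinery were taken from a list of 35, of which 34 had at least 20 UMIs. In young mice 5 were at least 1.5-fold higher with I/R and 5 lower, beside 8.03% and 47.5% of all genes, with a median of -0.12. With scaling by the median of gene-wise ratios these counts were 10 and 1, beside 16.2% and 30.8% of all genes. In the comparisons that follow they were 2 and 2 in aged mice, beside 14.1% and 14.0% of all genes. Between the sham libraries they were 2 and 2 (15.3% and 15.3%), and between the I/R libraries 3 and 3 (26.2% and 12.1%). Flnc, the filamin of striated muscle, had 156, 517, 173 and 191 CPM, so that young I/R stood far above the others, by 1.73 (1.68 to 1.78) over young sham. Cav3, the caveolin of muscle, had 39.1, 104, 49.2 and 53.7 CPM, a like pattern with a ratio of 1.41 (1.31 to 1.51). Lowest were Rsu1, which binds PINCH, at -1.28 (-1.43 to -1.13), and Fermt3, the kindlin of blood cells, at -0.85 (-1.13 to -0.57). Others past 1.5-fold, named after their values were seen, were Tes, Enah and Nrap on the high side and Bcar1 and Arhgef7 on the low side. In aged mice 5 were higher, with Tes and Nrap among them beside those given next, and 1 lower, Src, beside 17.6% and 10.6% of all genes. Fermt3 had 9.10, 5.04, 6.09 and 11.95 CPM, with the highest aged ratio, 0.97 (0.77 to 1.18), followed by the tensin Tns1 with 0.73 (0.71 to 0.76), and the lowest were Src at -0.61 (-0.92 to -0.29) and Trip6 at -0.53 (-0.69 to -0.37). Between the sham libraries 1 was higher, Src, at 0.74 (0.31 to 1.19), with Cav1 next at 0.45, and 2 were lower, Bcar1, the docking protein p130Cas, at -0.76 (-0.93 to -0.60) being the lowest, beside 11.3% and 21.4% of all genes. Between the I/R libraries 5 were higher in aged mice, among them Fermt3 at 1.25, Rsu1 at 1.12 and Apbb1ip at 1.02, and 3 lower, Flnc at -1.43, Cav3 at -0.95 and Csrp3 at -0.89, beside 43.4% and 5.07% of all genes.

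Ligands of the receptors were listed with 24 genes, of which 20 had at least 20 UMIs. With I/R, 6 were at least 1.5-fold higher and 7 lower in young mice, beside 8.03% and 47.5% of all genes, and 6 higher and 1 lower in aged mice, beside 17.6% and 10.6%. With scaling by the median of gene-wise ratios the counts were 8 and 2 in young mice, beside 16.2% and 30.8% of all genes, and 6 and 2 in aged mice, beside 14.1% and 14.0%. Between the sham libraries they were 6 and 2 (15.3% and 15.3%), and between the I/R libraries 3 and 3 (26.2% and 12.1%). Spp1, osteopontin, a ligand of Itgav and Itga9 receptors, had 0.39, 17.5, 1.93 and 16.8 CPM, from 10 UMIs in young sham, with ratios of 5.50 (4.61 to 6.56) and 3.12 (2.79 to 3.46). Tnc, the matrix protein tenascin C, had 0.43, 11.8, 1.16 and 8.66 CPM, with ratios of 4.80 (3.95 to 5.81) and 2.90 (2.47 to 3.36). Both were higher in both I/R libraries. Fibronectin itself, Fn1, had 24.3, 46.2, 33.6 and 76.8 CPM, chosen for mention after its values were seen because it is the ligand of Itga5. It was highest in aged I/R, where Itga5 was 0.90 (0.82 to 0.97) below young I/R. Among laminin chains, Lama2, the chain bound by the muscle receptor, at -1.25 (-1.33 to -1.17) and Lama4 at -1.12 (-1.21 to -1.04) had the lowest young ratios of the list. They span 640 and 145 kb, in span classes with all-gene medians of -0.90 and -0.66 in young mice. Of the other laminin chains, Lama5 was at -0.85, Lamb1 at -0.59, Lamb2 at -0.55 and Lamc1 at -0.29. In aged mice the lowest were Vtn, also a mural marker, at -0.67 (-0.79 to -0.55) and Icam1 at -0.54 (-0.66 to -0.42). Between the sham libraries 5 were higher with age. Spp1 at 2.32 (1.37 to 3.44) and Tnc at 1.45 (0.48 to 2.54) had the highest ratios, each with fewer than 100 UMIs in the pair. Among ligands with more UMIs, Thbs1 at 1.39 (1.10 to 1.69) and Icam1, a ligand of Itgal and Itgam, at 0.86 (0.68 to 1.04) were highest, and the remaining one was Vcam1. These 5 and the 2 that were lower stand beside 11.3% and 21.4% of all genes. The lower ones were Lama2 at -0.87 and, with 1 to 19 UMIs per library, Cdh1, while Nid1 was at -0.50. Between the I/R libraries 8 were higher in aged mice, led by Vcam1, the ligand of Itga4, at 1.16 (1.01 to 1.31), and Lamc1 at 1.11 (1.04 to 1.19), and 1 was lower, Thbs1 at -0.61, with Tnc next at -0.45, beside 43.4% and 5.07% of all genes.

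Cell type markers give the setting of these values. The cardiomyocyte list of 18 genes took 106853, 94621, 100249 and 117471 CPM, the endothelial list 1885, 1509, 1974 and 1925 CPM, the fibroblast list 1599, 1244, 2157 and 1635 CPM, and the mural list 838, 613, 846 and 819.5 CPM. As sums, all 4 were lowest in young I/R, with log2 ratios to young sham of -0.18 to -0.45. All 4 lay above the median of all genes in this comparison, -0.53. Scaling by the median of gene-wise ratios adds 0.37 to each of them. That exceeds the size of the cardiomyocyte (-0.18), endothelial (-0.32) and fibroblast (-0.36) ratios, so that young I/R is then not the lowest library of these lists. The mural ratio (-0.45) stays below 0. Single genes were split for cardiomyocytes, with 8 of 18 above 0 in this comparison. Ttn, the largest entry, dropped from 31744 to 18615 CPM and weighs heavily on that total, whereas Mb went from 7737 to 9380 CPM. Of the other lists, 1 of 16 endothelial, 1 of 14 fibroblast and 0 of 10 mural genes were above 0. The share of all genes above 0 was not counted, but 47.5% of all genes were at least 1.5-fold lower. The part of these cell types in the lower members was not tested. In barcodes with at least 2 markers of a list, members were counted against all other barcodes. Of the members with at least 10 UMIs there, none was 1.5-fold higher in the endothelial set of any library. The largest counts were 3 of 29 in the fibroblast set of young sham and 3 of 19 in the neutrophil set of aged I/R. At most 2 were 1.5-fold lower in any set. The share of all genes past 1.5-fold in these sets was not counted, so these counts are not read as a trait of the members. In the macrophage set of young sham, of 818 barcodes, 1 of 17 was higher. It was Itga7, with 109 CPM against 69.2 elsewhere, from 33 UMIs. Itgb2, with 7 UMIs there and so under the minimum, had 23.1 CPM against 3.80 elsewhere, while in aged I/R it had 10.5 against 9.18. Flna in the mural set had 261, 178, 172 and 159.7 CPM against 135, 130.0, 141 and 141 elsewhere. Flna was thus higher with mural markers in all 4 libraries, by a factor that was largest in young sham, the shallowest library.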

How the data were processed

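As deposited by the authors, each matrix holds whole counts of UMIs per gene and barcode, made from 10x 3′ libraries with Cell Ranger 6.0.2 and mm10 per the submitters' processing notes. Whether intronic reads were counted is not given in the sources used here. For each library the UMIs of all barcodes were added up per gene and divided by the library total to give CPM. No doublet caller was run and no doublets were removed, so that barcodes with markers of a list may hold more than 1 cell. Members, gene lists and marker lists were chosen with earlier results of these data known. Named in full are, per comparison, the 4 highest and 4 lowest members with 100 UMIs or more in the pair, and of the 35 partners and 24 ligands, with the same minimum, the 2 highest and 2 lowest.

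Log2 ratios have exact conditional binomial (Clopper-Pearson) 95% intervals. Intervals of differences between ratios use the normal approximation on the log scale. Both cover counting error only, and 1 UMI was worth 0.015 to 0.039 CPM depending on depth. The calculations were tested on simulated counts. Alternatives were scaling by the median of gene-wise ratios over 8861 genes with at least 200 UMIs in every library, leaving out 13 mitochondrial genes, Gm42418 and Malat1, barcodes with at least 200 detected genes, barcodes with 300 to 600 UMIs, and filters of 100 UMIs or 1 UMI. Span classes, sets of barcodes with 2 markers and promoter boxes were added after the values had been seen. Spans and positions come from GENCODE M21 (GRCm38). Itga1, Itga10 and Itgam share exons with another annotated gene on the same strand, and 11 members with a gene on the opposite strand, so their counts are uncertain to that extent. The authors' clusters were not used here, and the values of 2 genes of the partner list are not reported here. Python 3.11.15, numpy 2.4.6, scipy 1.17.1, pandas 2.3.3 and matplotlib 3.10.9 were used.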

Additional observations from a re-analysis of the deposited data

Results flagged for a closer look

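For 7 of the 38 members the log2 ratio of I/R over sham had an interval on opposite sides of 0 in young and aged mice. The share of all genes with such intervals was not counted, so the 7 are not read as a trait of these genes. The medians of all genes had opposite signs too, at -0.53 in young and 0.09 in aged mice. With 1 library per condition the difference between the ages was not tested. Tln2 was past 1.5-fold in both directions, at -0.90 in young and 1.0 in aged mice, a difference of 1.90 (1.77 to 2.03), and its young ratio came to -0.53, within 1.5-fold, with scaling by the median of gene-wise ratios. Itga4 differed by 1.93 (1.57 to 2.28), Itga1 by 1.34 (1.25 to 1.42), Ptk2 by 1.10 (0.96 to 1.24) and Sorbs2 by 0.63 (0.60 to 0.67), each lower with I/R in young and higher in aged mice. Itgax differed by -2.19 (-3.07 to -1.31), from 15 UMIs in young sham, and Zyx by -0.46 (-0.59 to -0.32), each the other way round. With scaling by the median of gene-wise ratios 6 of the 7 still lay on opposite sides of 0, and Sorbs2 did not, with 0.03 in young and 0.20 in aged mice. Itga1, Tln2, Ptk2 and Sorbs2 each span over 100 kb, in classes whose all-gene medians also had opposite signs at the 2 ages, -0.66 and 0.21 for 100 to 200 kb and -0.90 and 0.25 above that. The part of gene span in these differences was not tested.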

How the results depend on the processing

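Scaling by the median of gene-wise ratios moved the counts of members past 1.5-fold in all 4 comparisons, to 9 lower in young I/R over young sham, 4 lower in aged I/R over aged sham, 8 higher in aged over young sham and 5 lower in aged over young I/R. Without mitochondrial genes, Gm42418 and Malat1, 4 and 5 were lower in the aged and the I/R comparison, beside 13.6% and 7.78% of all genes. Barcodes with 300 to 600 UMIs gave 4 lower in the aged comparison, beside 12.1% of all genes. Centring on genes of like span was chosen after the values had been seen. It gave 16 higher and 5 lower in young mice, beside 21.1% and 25.1% of all genes. In aged mice it gave 4 lower, beside 12.7% of all genes. Between sham libraries it gave 8 higher and 2 lower, beside 14.6% and 15.8% of all genes. Between I/R libraries it gave 8 higher and 10 lower, beside 20.6% and 15.9% of all genes. The other counts stayed within 1.5 times of those reported under these alternatives and under filters of 100 UMIs or 1 UMI. No member past 1.5-fold changed sign under the 4 alternatives run per member. The cause of these shifts was not tested. No paired analysis was possible because each condition has 1 library, and for the same reason no replicate could be left out. Depth limits the scarce members: Itgae, Itgax, Itgb7 and Itga11 had 7 to 15 UMIs in their lowest library, and intervals over 1.5 log2 units wide in the young comparison.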

Other observations

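Paralogs in muscle and in other cells were set side by side after their values had been seen. Actn2, the sarcomeric alpha-actinin, had 815 and 1080 CPM in the young sham and I/R libraries and 902 and 1008 CPM in the aged ones. Its log2 ratios with I/R were 0.41 (young) and 0.16 (aged), whereas Actn1 had 1.20 and 0.57. For the filamins the order was the other way: Flnc, of muscle, had 1.73 and 0.14, and Flna, of most cells, -0.08 and 0.01. Csrp3, the muscle LIM protein of the Z-disc, had 932, 1357, 1004 and 732 CPM and ratios of 0.54 and -0.46, and Nrap, which joins actin to the membrane, 425, 664, 448 and 685 CPM and ratios of 0.64 and 0.61. These values compare single libraries and were not tested.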
